A study of Sus scrofa with 9 samples.

Results

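The genes described here encode ligands, receptors and intracellular transducers of the WNT, FGF, BMP, activin and TGF-beta pathways in porcine hatched blastocysts (HB). They were chosen by name, as every gene on the array whose symbol begins with WNT, FZD, DVL, FGF, BMP, SMAD, ACVR, TGFB, INHB, INHA or FST. This gave 50 of 7518 named genes, measured by 56 probes. No gene with a symbol beginning with DVL was named on the array, and the naming rule uses no measured value. Transcript levels were compared among 3 groups with 3 arrays each, and every array held amplified RNA of 1 pool of 5 embryos labelled with Cy5. CT HB came from chromatin transfer, which places the treated chromatin of a somatic cell in an oocyte without chromosomes of its own. The type of donor cell is not given. PA HB came from oocytes activated without sperm, so that they hold maternal genomes only. Both CT HB and PA HB were activated with ionomycin followed by DMAP, and both were cultured in mNCSU-23 medium. IVV HB developed in inseminated gilts and were collected at 5.5 days after insemination. For CT HB and PA HB the labels give a collection time of 7 hpf, a unit that is not resolved here, because the methods describe several days of culture. Origin, culture and age therefore changed together between CT HB or PA HB and IVV HB, and their parts cannot be told apart.

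WNT ligands bind Frizzled receptors and, through Dishevelled, either stabilise beta-catenin or act on cell polarity and movement. FGF ligands bind receptor tyrosine kinases that signal through GRB2 and RAS to the MAP kinases. BMPs, activins, nodal and TGF-betas assemble type I and type II serine/threonine kinase receptors, which phosphorylate SMAD proteins. The SMADs then enter the nucleus with SMAD4, while follistatin and other secreted proteins trap ligands outside the cell. In mammalian blastocysts these pathways are known for roles in the setting apart of trophectoderm, epiblast and hypoblast.

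Each value is a log2 ratio of an embryo pool over a common Cy3-labelled reference, which was made from porcine oocytes and embryos of successive stages up to day 11. A value of 0 means the same level as in that reference, and a difference of 1 between groups is a 2-fold change. The interquartile range of the ratios over all named genes was 0.58 to 0.66 on CT HB arrays, 0.81 to 0.98 on PA HB arrays and 0.56 to 0.66 on IVV HB arrays. Over the 50 signalling genes it was 0.47 to 0.54 in CT HB, 0.51 to 0.69 in PA HB and 0.39 to 0.63 in IVV HB. The spread between arrays of a group, pooled over the 3 groups, had a median SD of 0.21 for signalling genes (0.11 to 0.49) and 0.25 for all genes. In pools of whole embryos, fewer cells of a type and less RNA per cell cannot be told apart. Trophectoderm markers (12 measured genes) had array medians of 0.22 to 0.32 in CT HB, 0.16 to 0.60 in PA HB and 0.31 to 0.46 in IVV HB, and those of inner cell mass and epiblast (4 measured) had medians of -0.36 to 0.03, -0.36 to -0.06 and 0.00 to 0.17 in the same order. Array medians of fibroblast markers (6 measured) lay between -1.03 and -0.42, and those of the hypoblast, uterine epithelium, cumulus and granulosa cell and leukocyte lists lay between -0.54 and 0.41.

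Few signalling genes changed in any comparison. In PA HB against IVV HB, 1 of 50 genes (2.00%), the receptor FGFR1, passed both thresholds in limma (adjusted p of at most 0.05, at least 2-fold), against 7.73% of all genes. In CT HB against IVV HB, 0 of 50 passed both thresholds, against 0.665% of all genes, and 5 had an unadjusted p under 0.05, against 11.0% of all genes. BMP15, an oocyte factor, was the 1 of 50 genes (2.00%) that passed both in CT HB against PA HB, against 7.77% of all genes. An unadjusted p under 0.05 was reached by 13 of 50 in PA HB against IVV HB (26.0%, against 28.8%) and by 16 of 50 in CT HB against PA HB (32.0%, against 28.3%). With no minimum fold change, 3 genes were higher in PA HB than IVV HB (FGFR1, FGF9 and FST, 6.00% of the genes against 7.01% of all genes tested). In both directions this rule took 3 of 50 genes (against 13.9% of all genes) for PA HB against IVV HB, 0 of 50 for CT HB against IVV HB (against 0.811%) and 4 of 50 (8.00%, against 14.4%) for CT HB against PA HB. In the last of these, 3 genes were lower in CT HB (FGFR1, FGF9 and BMP15, 6.00% against 7.53%) and 1 was higher (ACVR1B, 2.00% against 6.84%). The 3 comparisons share arrays with each other, so they are not separate evidence. By both thresholds, 3 of 12 trophectoderm markers passed in PA HB against IVV HB (against 7.73% of all genes), with the keratin KRT8 higher (1.09) and the keratin KRT18 (-1.12) and the glucose transporter SLC2A1 (-1.01) lower. By QPCR the authors found both keratins lower in PA HB than IVV HB, which for KRT8 is opposite to the array value. On the arrays, the hypoblast factor GATA6 (2.06) and VIM (1.21), listed as a fibroblast marker, were also higher in PA HB than IVV HB. Each was the only 1 of 6 measured markers of its list to pass (16.7%). The median changes of these lists were -0.02 for hypoblast and 0.02 for fibroblast. Both genes were lower in CT HB against PA HB (-1.55 and -1.01), the only markers to pass there beside those of the oocyte. The part of these cell types in the values of the signalling genes was not tested.

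**Figure D1:**
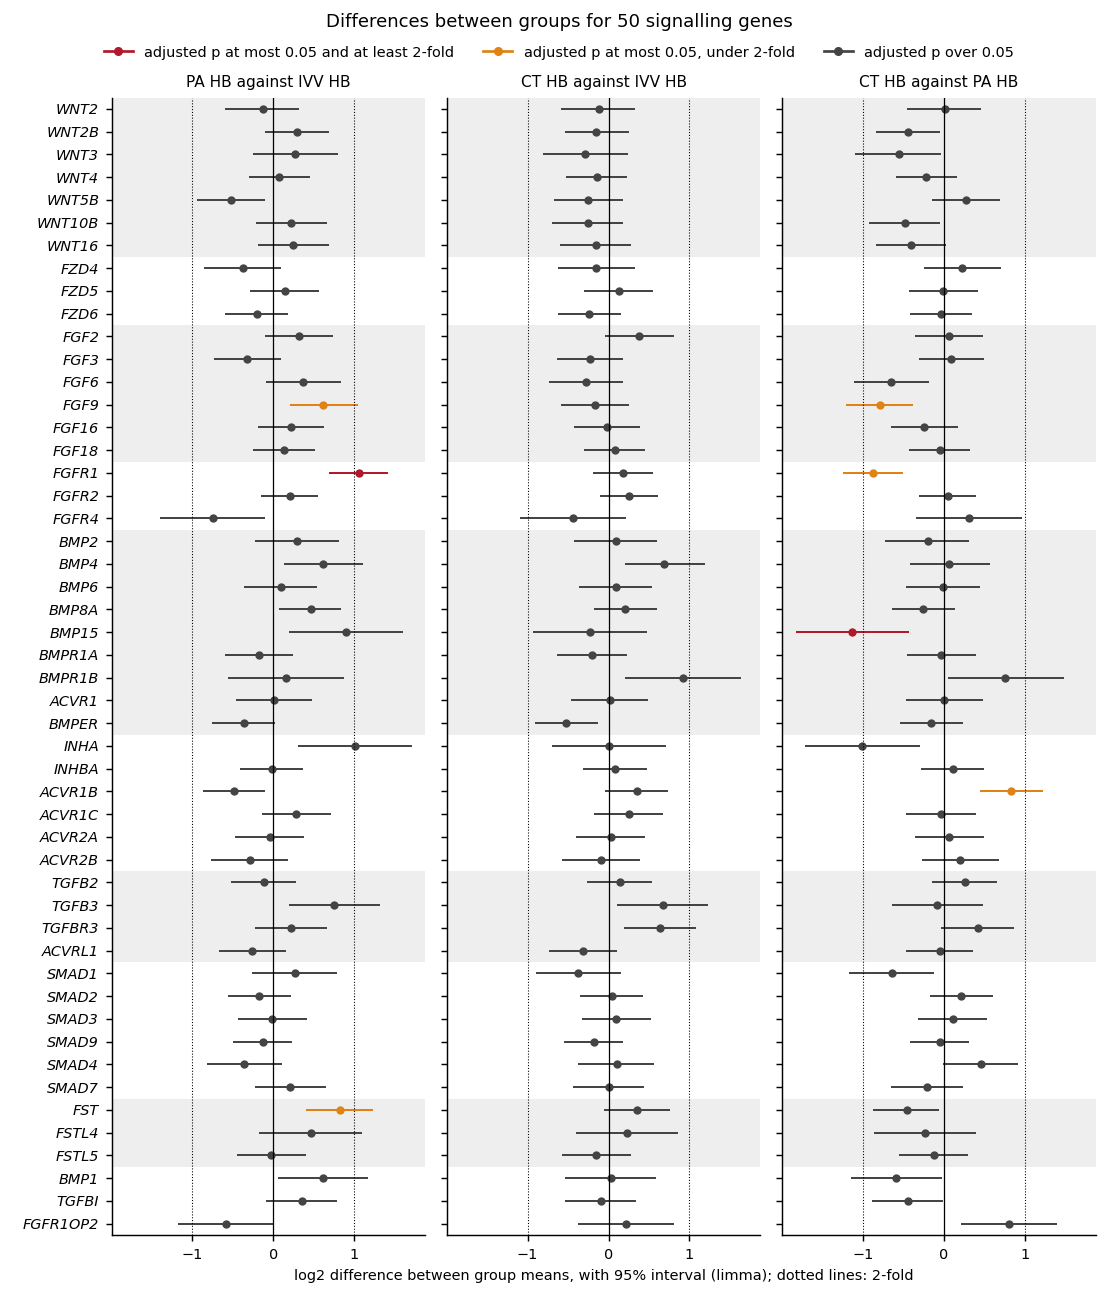
Differences in log2 ratio between group means (points) with 95% intervals from limma (bars) for the 50 signalling genes, with dotted lines at 2-fold. FGFR1 (1.06 in PA HB against IVV HB) and BMP15 (-1.13 in CT HB against PA HB) are the genes drawn in red, and no interval is coloured in CT HB against IVV HB.

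Most signalling genes, like most of all genes, were bounded to differences under 2-fold. The 95% interval of the difference lay inside 2-fold in either direction for 39 of 50 genes (78.0%) in PA HB against IVV HB, where 72.1% of all genes did so. It was so in CT HB against IVV HB for 45 of 50 (90.0%, against 84.6% of all genes), and in CT HB against PA HB for 39 of 50 (78.0%, against 72.3%). The median log2 change of the signalling genes was 0.15 in PA HB against IVV HB, 0.01 in CT HB against IVV HB and -0.05 in CT HB against PA HB, beside 0.01, -0.01 and 0.00 for all genes. The 3 PA HB arrays did not overlap the 3 IVV HB arrays for 18 of 50 genes (36.0%), against 30.7% of all genes, and 13 of them (26.0%, against 15.0%) were higher in PA HB. CT HB and IVV HB did not overlap for 10 of 50 (20.0%, against 19.2%), with 7 higher in CT HB (14.0%, against 9.78%). CT HB and PA HB did not overlap for 17 of 50 (34.0%, against 31.2%), with 12 lower in CT HB (24.0%, against 16.2%).

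**Figure D2:**
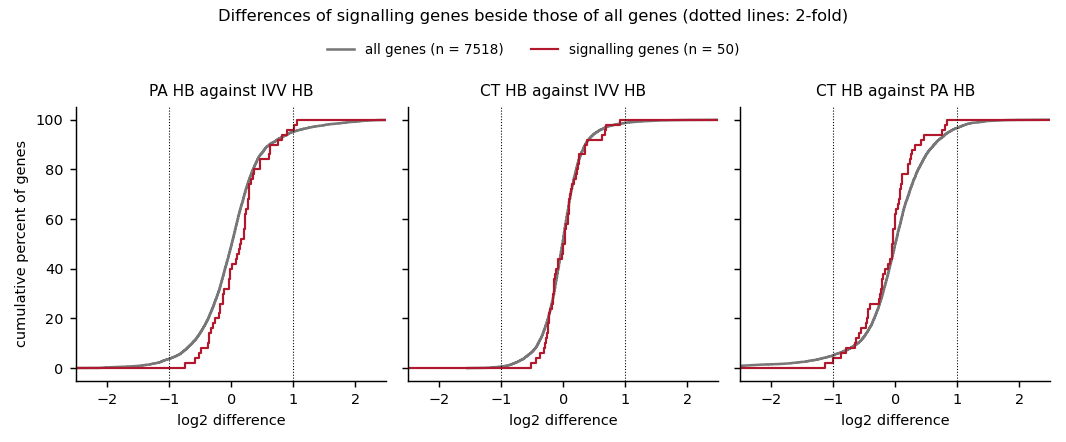
Cumulative percent of genes (y axis) by log2 difference between group means (x axis) for the 50 signalling genes in red and all 7518 genes in grey, with dotted lines at 2-fold. The red curve of PA HB against IVV HB runs to the right of the grey one around its middle (medians 0.15 and 0.01), whereas the medians for CT HB against IVV HB are 0.01 and -0.01.

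Against the reference pool, 10 signalling genes (20.0%) lay below 0 on all 9 arrays, as did 21.6% of all genes. These were BMP15, BMPR1A, BMPR1B, BMPER, BMP1, INHA, TGFB3, SMAD1, SMAD2 and SMAD9, of which BMPER and TGFB3 lay below it by over 2-fold in the mean of every group (4.00%, against 6.21% of all genes). None lay above 0 on all arrays, against 9.19% of all genes. All WNT ligands had group means between -0.26 and 0.37, which are ratios near 0. No probe was set aside for lying near background, so these ratios do not show how strongly the WNT ligands were expressed.

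**Figure D3:**
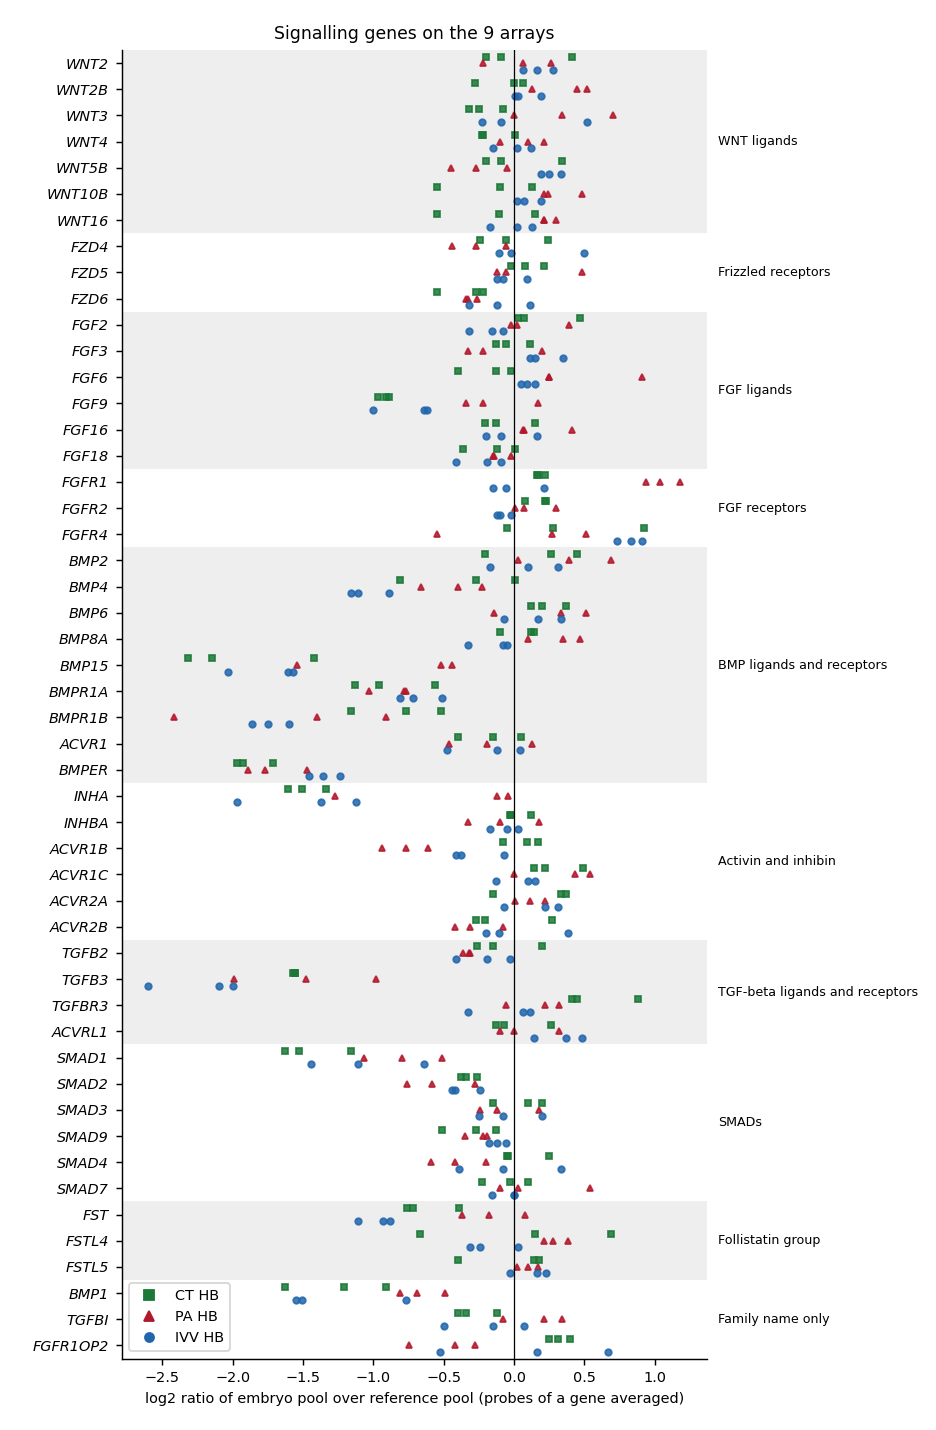
Log2 ratio of embryo pool over reference pool (x axis) for each of the 50 signalling genes (rows, grouped by role) on the 9 arrays, with CT HB as squares, PA HB as triangles and IVV HB as circles. BMP15, BMPR1B, BMPER, INHA, TGFB3, SMAD1 and BMP1 have points below -1.5, and the PA HB triangles of FGFR1 (0.94 to 1.18) lie to the right of its 6 other points.

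Of the 6 FGF ligands measured, FGF9 changed. FGF9 is a secreted ligand that acts between neighbouring tissues, and its log2 ratio over the reference was -0.91, -0.89 and -0.97 in CT HB, -0.34, 0.17 and -0.22 in PA HB and -1.00, -0.64 and -0.62 in IVV HB. Every PA HB array lay above every array of the other groups. FGF9 was higher by 0.62 ± 0.18 (SE) in PA HB than in IVV HB (adjusted p = 0.045, limma) and lower by a log2 change of -0.79 ± 0.18 in CT HB than in PA HB (adjusted p = 0.016), and neither change reached 2-fold. The adjusted p for PA HB against IVV HB was 0.060 to 0.18 when any array other than PA HB 1 was left out, 0.095 in a fit of these 6 arrays alone and 0.062 without the least variable genes. That for CT HB against PA HB was 0.053 to 0.071 without CT HB 1, CT HB 3 or PA HB 2.

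The other FGF ligands did not pass the test in any comparison. FGF2, a broadly acting ligand that is known to support pluripotent cells in culture, had the largest difference between CT HB and IVV HB (0.38 ± 0.19, adjusted p = 0.50), at 0.47, 0.03 and 0.07 in CT HB against -0.16, -0.08 and -0.32 in IVV HB. FGF2 thus did not overlap between these groups. FGF6 was at 0.25, 0.91 and 0.25 in PA HB and at 0.09, 0.15 and 0.05 in IVV HB, with a difference of 0.37 ± 0.20 (adjusted p = 0.26). Against PA HB, the CT HB arrays of FGF6 lay at -0.02, -0.40 and -0.13, which gave -0.65 ± 0.20 (adjusted p = 0.055). FGF3, FGF16 and FGF18 had differences between -0.32 and 0.22 over the 3 comparisons.

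FGFR1 showed the clearest difference of the 50 genes. It encodes a receptor tyrosine kinase for many FGF ligands, and its log2 ratio was 0.17, 0.16 and 0.22 in CT HB, 1.04, 1.18 and 0.94 in PA HB and -0.15, 0.21 and -0.06 in IVV HB. The PA HB arrays stood apart from the 6 other arrays, whereas CT HB and IVV HB overlapped. FGFR1 was 2.08-fold higher in PA HB than IVV HB, with a log2 change of 1.06 ± 0.16 (95% interval 0.70 to 1.41, adjusted p = 0.0032, limma). It was lower in CT HB than PA HB by a log2 change of -0.87 ± 0.16 (adjusted p = 0.0069), and CT HB and IVV HB differed by 0.18 ± 0.16 (adjusted p = 0.76). The change in PA HB stayed below an adjusted p of 0.05 in all 19 other fits, up to 0.018, but fell short of 2-fold with quantile normalization (0.83) or scale normalization (0.81) between arrays, without the array PA HB 2 (0.99) and without IVV HB 1 (0.98).

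**Figure D4:**
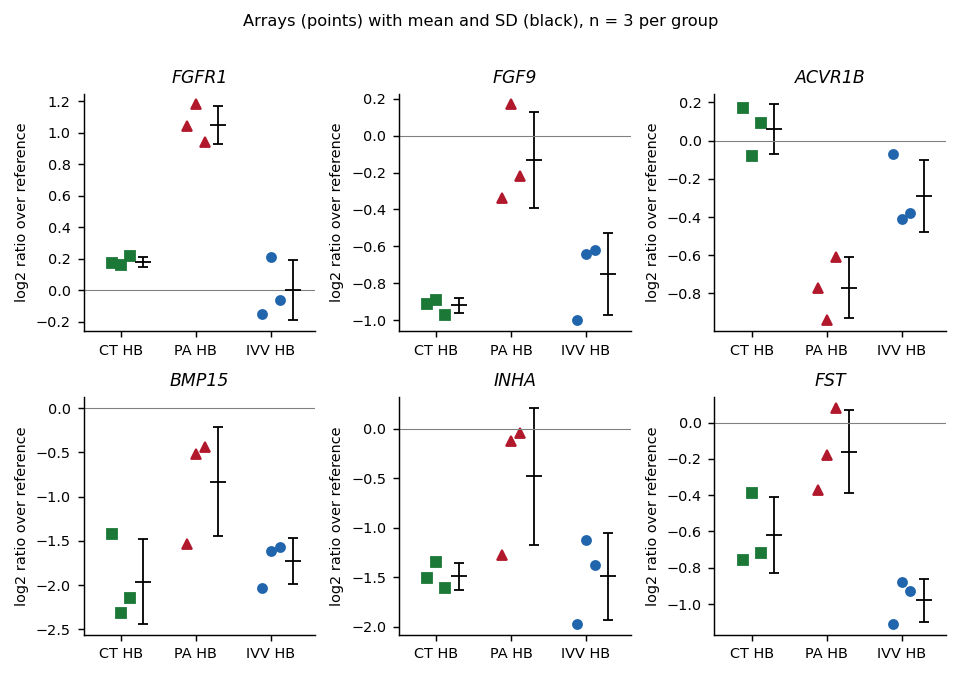
Log2 ratio over the reference (y axes, which differ between panels) on each array (points) for 6 signalling genes, with group mean and SD in black (n = 3 arrays per group). FGFR1 and FGF9 are higher on all PA HB arrays than on the 6 others, ACVR1B is lower on all PA HB arrays, and 1 PA HB array of BMP15 and INHA (-1.54 and -1.27) lies near the arrays of the other groups.

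The other FGF receptors did not pass. FGFR4 was at -0.05, 0.92 and 0.28 in CT HB, at 0.51, -0.55 and 0.27 in PA HB and at 0.83, 0.91 and 0.73 in IVV HB. All PA HB arrays lay below those of IVV HB, and the CT HB and PA HB arrays scattered widely. The difference in PA HB was -0.75 ± 0.29 (adjusted p = 0.11) and that in CT HB -0.44 ± 0.29 (adjusted p = 0.66), both against IVV HB. Of its 2 probes, one gave a log2 change of -1.05 in PA HB against IVV HB (adjusted p = 0.045 in a fit per probe) and the other -0.44 (adjusted p = 0.34), so the gene passed both thresholds at 1 of its 2 probes. FGFR2, known for its part in trophoblast and hypoblast formation in the mouse, was measured by 3 probes, whose differences between PA HB and IVV HB were -0.02, 0.65 and -0.03, with 0.061 as the lowest adjusted p over probes. The mean of its probes differed by 0.20 ± 0.16 in PA HB and by 0.25 ± 0.16 in CT HB from IVV HB (adjusted p = 0.42 and 0.62).

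Of the 7 WNT ligands and 3 Frizzled receptors, 0 passed the adjusted threshold in any comparison in limma. Of all genes, 13.9% passed it in PA HB against IVV HB, 0.811% in CT HB against IVV HB and 14.4% in CT HB against PA HB. An unadjusted p under 0.05 was found for WNT5B in PA HB against IVV HB, and for WNT2B, WNT3 and WNT10B in CT HB against PA HB. It was reached by 28.8% and 28.3% of all genes in these comparisons. WNT5B, which is known to act on cell movement more than through beta-catenin, was at -0.45, -0.27 and -0.05 in PA HB and at 0.33, 0.25 and 0.19 in IVV HB. These arrays did not overlap, and the difference was -0.52 ± 0.19 (adjusted p = 0.090). The CT HB arrays of WNT5B, at -0.09, 0.34 and -0.20, overlapped both.

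WNT3, a ligand of the beta-catenin branch that is needed for gastrulation in the mouse, lay at -0.32, -0.25 and -0.08 in CT HB, at 0.70, 0.34 and 0.00 in PA HB and at -0.09, 0.52 and -0.23 in IVV HB. Every CT HB array lay below every PA HB array, with a difference of -0.56 ± 0.24 (adjusted p = 0.14). WNT2B (-0.44 ± 0.17, adjusted p = 0.12), WNT10B (-0.48 ± 0.19, adjusted p = 0.13) and WNT16 (-0.41 ± 0.19, adjusted p = 0.20) likewise did not overlap between CT HB and PA HB. These groups did not overlap for 31.2% of all genes, with 16.2% lower in CT HB. In CT HB against IVV HB, the differences of all 7 WNT ligands lay below 0, as did those of 3932 of all 7518 genes. The 7 differences ran from -0.29 (WNT3) to -0.12 (WNT2) and share the same arrays. They also lay below 0 after centring, quantile or scale normalization, and none came near the threshold (lowest adjusted p = 0.70). WNT2 and WNT4 differed by at most 0.22 in size in any comparison.

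The Frizzled receptors FZD4, FZD5 and FZD6, which bind the WNT ligands at the cell surface, did not pass in any comparison. The largest difference was that of FZD4 in PA HB against IVV HB (-0.38 ± 0.21, adjusted p = 0.26), where the arrays overlapped. Between CT HB and IVV HB it was that of FZD6 (-0.24 ± 0.17, adjusted p = 0.69). All 9 intervals of these receptors over the 3 comparisons lay within 2-fold.

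Among BMP ligands, BMP15 differed between CT HB and PA HB. It is known as a factor that the oocyte secretes together with GDF9 to act on granulosa cells, and its log2 ratio was -1.42, -2.32 and -2.15 in CT HB, -1.54, -0.52 and -0.44 in PA HB and -2.03, -1.61 and -1.57 in IVV HB. The arrays PA HB 2 and PA HB 3 were higher than all others, and PA HB 1 overlapped the CT HB arrays and lay just above those of IVV HB. BMP15 was lower in CT HB than PA HB by a log2 change of -1.13 ± 0.31 (95% interval -1.82 to -0.44, adjusted p = 0.034, limma), was higher by 0.90 ± 0.31 in PA HB than in IVV HB without passing (adjusted p = 0.082), and differed by -0.23 ± 0.31 between CT HB and IVV HB (adjusted p = 0.87). The adjusted p between CT HB and PA HB was 0.056 in a fit of these 6 arrays alone and 0.051 to 0.13 without CT HB 2, CT HB 3, PA HB 2, PA HB 3 or IVV HB 3, each left out in turn. Against IVV HB, PA HB passed both thresholds with scale normalization (1.41, adjusted p = 0.023) or without PA HB 1 (1.26, adjusted p = 0.010).

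Other transcripts of the oocyte moved with BMP15. Of 10 measured oocyte markers other than BMP15, 7 were lower by both thresholds in CT HB than PA HB (70.0%, against 7.77% of all genes changed in either direction), 6 were higher in PA HB than IVV HB (60.0%, against 7.73%), and 0 passed between CT HB and IVV HB (1 at an unadjusted p under 0.05, limma). The genes were ZP3, ZP4, GDF9, FIGLA, MOS and ZAR1 in both comparisons and ZP2 in CT HB against PA HB, which encode zona pellucida proteins, a secreted factor, a transcription factor, a kinase and a maternal-effect protein. Their values over the arrays correlated at 0.87 to 0.97 with a profile, described below, that 644 probes shared, 256 of them with a gene name. The median log2 ratio of the 10 markers was -3.68, -3.24 and -3.62 in CT HB, -2.74, -2.33 and -2.26 in PA HB and -3.69, -2.64 and -3.09 in IVV HB. Each of these medians lay further below the reference, which contains oocytes, than that of BMP15 on the same array. The part of these transcripts in the BMP15 values was not tested.

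The other BMP ligands did not pass. BMP4, which is known to pattern early mesoderm and extraembryonic tissue, was at -0.27, -0.81 and 0.01 in CT HB, at -0.40, -0.23 and -0.66 in PA HB and at -0.89, -1.16 and -1.11 in IVV HB. All CT HB and PA HB arrays lay above all IVV HB arrays. The difference from IVV HB was 0.69 ± 0.22 in CT HB (adjusted p = 0.23) and 0.62 ± 0.22 in PA HB (adjusted p = 0.087), measured against the same IVV HB arrays. BMP8A was at 0.35, 0.10 and 0.47 in PA HB and at -0.33, -0.08 and -0.05 in IVV HB, with a difference of 0.46 ± 0.17 (adjusted p = 0.10). BMP2 and BMP6 had differences between -0.20 and 0.29 in all comparisons.

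BMPR1B, a type I receptor for BMPs, had the largest difference between CT HB and IVV HB. Its log2 ratio was -1.16, -0.77 and -0.52 in CT HB, -1.40, -2.42 and -0.91 in PA HB and -1.75, -1.86 and -1.60 in IVV HB. All CT HB arrays lay above all IVV HB arrays, and the PA HB arrays overlapped both groups, with CT HB 2 and CT HB 3 above all of them. The change in CT HB against IVV HB was 0.92 ± 0.32 (95% interval 0.22 to 1.62, adjusted p = 0.27). Of the settings tried, BMPR1B passed both thresholds there with scale normalization only (1.13, adjusted p = 0.044), and in CT HB against PA HB (0.76 ± 0.32, adjusted p = 0.14) it passed without PA HB 3 only (adjusted p = 0.045). The related type I receptors BMPR1A and ACVR1 differed by -0.21 to 0.02 in all 3 comparisons.

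BMPER, a secreted protein that binds BMPs, lay far below the reference in all groups, with a mean of -1.87 ± 0.14 in CT HB, -1.71 ± 0.22 in PA HB and -1.35 ± 0.11 in IVV HB (SD, n = 3). The arrays of CT HB and of PA HB lay below those of IVV HB, by -0.52 ± 0.17 (adjusted p = 0.24) and -0.36 ± 0.17 (adjusted p = 0.19). Its 2 probes did not give the same picture. One lay between -0.85 and -0.41 on all arrays and differed by -0.03 in CT HB and 0.15 in PA HB from IVV HB. The other was at -3.23, -2.76 and -3.06 in CT HB, at -2.77, -3.33 and -2.53 in PA HB and at -1.84, -2.31 and -1.86 in IVV HB, and its differences from IVV HB were -1.01 (adjusted p over probes = 0.089) in CT HB and -0.87 (0.031) in PA HB.

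**Figure D5:**
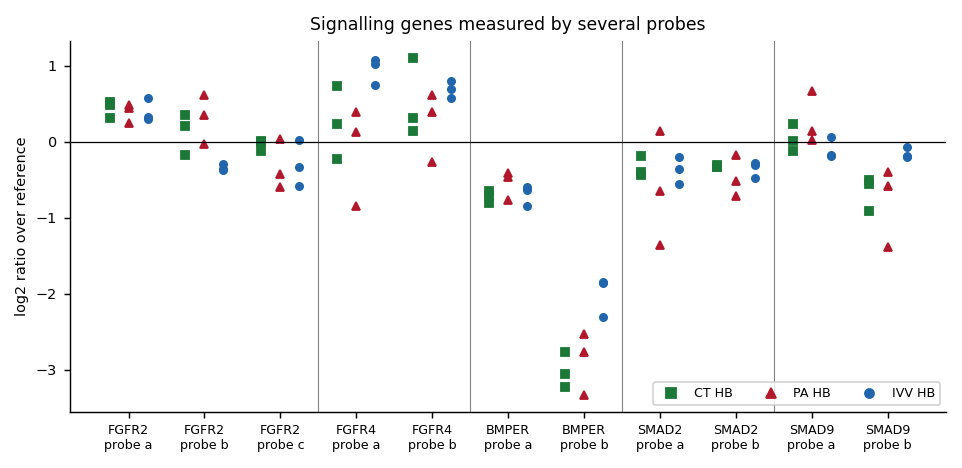
Log2 ratio over the reference (y axis) of each probe (columns) on the 9 arrays for the 5 signalling genes measured by several probes, with CT HB as squares, PA HB as triangles and IVV HB as circles. The 2 probes of BMPER lie at different levels (above -1 and below -1.5), and probe a of FGFR4 is lower on all PA HB arrays (-0.85 to 0.40) than on the IVV HB arrays (0.75 to 1.08).

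Among activin and inhibin genes, ACVR1B differed between CT HB and PA HB. ACVR1B is a type I receptor of activin and nodal, and its log2 ratio was 0.17, -0.08 and 0.09 in CT HB, -0.77, -0.94 and -0.61 in PA HB and -0.07, -0.41 and -0.38 in IVV HB. The PA HB arrays lay below the 6 others. ACVR1B was higher in CT HB than in PA HB by 0.83 ± 0.17 (95% interval 0.46 to 1.21, adjusted p = 0.0093, limma), a change below 2-fold. It differed by -0.49 ± 0.17 in PA HB (adjusted p = 0.084) and by 0.35 ± 0.17 in CT HB (adjusted p = 0.50) from IVV HB.

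INHA, the subunit that inhibin adds to a beta subunit shared with activin, had a 2-fold difference that missed the threshold of significance. Its log2 ratio was -1.51, -1.34 and -1.61 in CT HB, -1.27, -0.12 and -0.04 in PA HB and -1.97, -1.12 and -1.37 in IVV HB. The arrays PA HB 2 and PA HB 3 lay far above the rest, while PA HB 1 fell among the IVV HB arrays. The log2 change was 1.01 ± 0.32 in PA HB against IVV HB (adjusted p = 0.056) and -1.01 ± 0.32 in CT HB against PA HB (adjusted p = 0.056), and CT HB and IVV HB had equal means (0.00 ± 0.32). Without PA HB 1 the change against IVV HB was 1.41 (adjusted p = 0.0043), and without IVV HB 1 it was 0.77 (adjusted p = 0.21). INHA passed both thresholds under 8 of 19 other settings in each of these comparisons.

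INHBA, the beta A subunit of activin and inhibin, differed by -0.02 to 0.11 over the comparisons. The type II receptors ACVR2A and ACVR2B and the type I receptor ACVR1C had differences between -0.29 and 0.28, and none of them passed. The 12 intervals of these 4 genes were all within 2-fold.

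The follistatin group held 1 gene that changed. FST, which binds activin and keeps it from its receptors, was at -0.76, -0.39 and -0.72 in CT HB, at -0.37, -0.18 and 0.08 in PA HB and at -1.11, -0.88 and -0.93 in IVV HB. The groups did not overlap, with PA HB highest and IVV HB lowest. FST was higher in PA HB than IVV HB by 0.82 ± 0.18 (95% interval 0.42 to 1.22, adjusted p = 0.015, limma), below 2-fold. CT HB differed by 0.35 ± 0.18 from IVV HB (adjusted p = 0.52) and by -0.46 ± 0.18 from PA HB (adjusted p = 0.11). The change in PA HB did not pass without IVV HB 1 (adjusted p = 0.070). The follistatin-like genes FSTL4 and FSTL5 differed by at most 0.46 in size, FSTL4 with a wide spread in CT HB (0.69, -0.67 and 0.15).

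Of the TGF-beta ligands and receptors, 0 of 4 passed the adjusted threshold in any comparison. Of all genes, 13.9% passed it in PA HB against IVV HB, 0.811% in CT HB against IVV HB and 14.4% in CT HB against PA HB. TGFB3 had an unadjusted p under 0.05 in both comparisons with IVV HB, as had TGFBR3 in CT HB. Such a p was reached by 28.8% of all genes in PA HB and 11.0% in CT HB, both against IVV HB. TGFB3, a ligand, was at -1.56, -1.56 and -1.57 in CT HB, at -1.48, -1.99 and -0.98 in PA HB and at -2.60, -2.10 and -2.00 in IVV HB. All CT HB and PA HB arrays lay above all IVV HB arrays. The difference from IVV HB was 0.67 ± 0.25 in CT HB (adjusted p = 0.31) and 0.75 ± 0.25 in PA HB (adjusted p = 0.068), and PA HB passed with scale normalization (1.54, adjusted p = 0.0076) or without PA HB 2 (1.00, adjusted p = 0.031).

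TGFBR3, or betaglycan, a co-receptor that presents TGF-beta ligands and also binds inhibin, was at 0.41, 0.88 and 0.45 in CT HB, at 0.22, 0.32 and -0.06 in PA HB and at 0.11, -0.33 and 0.06 in IVV HB. CT HB lay above both other groups, and the difference from IVV HB was 0.63 ± 0.20 (95% interval 0.20 to 1.07, adjusted p = 0.22). TGFB2 and the type I receptor ACVRL1 had differences between -0.31 and 0.26.

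No SMAD passed the threshold. Over the 3 comparisons, 0 of 6 SMADs had an adjusted p of at most 0.05 in limma. Of all genes, 13.9% had so in PA HB against IVV HB, 0.811% in CT HB against IVV HB and 14.4% in CT HB against PA HB. SMAD1 and SMAD4 had an unadjusted p under 0.05 in CT HB against PA HB, against 28.3% of all genes. SMAD1, a transducer of BMP receptors, lay at -1.63, -1.53 and -1.16 in CT HB, at -1.07, -0.51 and -0.80 in PA HB and at -1.44, -0.64 and -1.11 in IVV HB. CT HB and PA HB did not overlap, with a difference of -0.64 ± 0.24 (adjusted p = 0.093). SMAD4, the partner of all receptor-regulated SMADs, was at -0.05, -0.04 and 0.25 in CT HB, at -0.20, -0.42 and -0.59 in PA HB and at 0.33, -0.39 and -0.08 in IVV HB. Its difference between CT HB and PA HB was 0.46 ± 0.21 (adjusted p = 0.18), and that between PA HB and IVV HB -0.36 ± 0.21 (adjusted p = 0.28).

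SMAD2 and SMAD3, which relay activin and TGF-beta signals, had differences of -0.18 to 0.21, and SMAD7, which inhibits the pathway, of -0.21 to 0.21. SMAD9, another transducer of BMP receptors, differed by -0.13 in PA HB and -0.18 in CT HB from IVV HB as the mean of 2 probes. Those probes pointed in opposite directions in PA HB against IVV HB, at 0.37 and -0.63, with adjusted p-values of 0.28 and 0.11 over probes.

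The symbols of 3 further genes carry the name of a family without being counted to its ligands, receptors, transducers or ligand-binding proteins. BMP1 is a protease that processes procollagen and chordin, TGFBI is a matrix protein, and FGFR1OP2 is named for a fusion with FGFR1. None passed the threshold. FGFR1OP2 was at 0.40, 0.31 and 0.25 in CT HB and at -0.28, -0.75 and -0.42 in PA HB, with a difference of 0.80 ± 0.26 (adjusted p = 0.065). BMP1 was at -1.63, -1.21 and -0.91 in CT HB, at -0.49, -0.81 and -0.69 in PA HB and at -1.55, -0.77 and -1.51 in IVV HB, and differed by 0.61 ± 0.25 between PA HB and IVV HB (adjusted p = 0.13).

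Other genes of the same pathways were taken from lists of regulators and effectors, and those past both thresholds are given beside the share of all genes. These single genes were not followed through the other settings of the fit. Of 27 measured WNT regulators and effectors, 2 passed both thresholds in PA HB against IVV HB (7.41%, against 7.73% of all genes). TLE4, a co-repressor that binds TCF factors, was higher by 1.56 (adjusted p = 0.0099), and CSNK1A1, the casein kinase that primes beta-catenin for degradation, was lower by a log2 change of -1.29 (adjusted p = 0.0044). TLE4 was lower in CT HB than PA HB by -1.62 (adjusted p = 0.0077), as the only 1 of 27 (3.70%, against 7.77%).

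Of 16 measured relay and feedback genes of FGF signalling, 2 passed in PA HB against IVV HB (12.5%, against 7.73% of all genes). GRB2, the adaptor between receptor tyrosine kinases and RAS, averaged -0.92 ± 0.41 in PA HB and 1.00 ± 0.36 in IVV HB (SD, n = 3), a log2 change of -1.93 (3.80-fold lower, adjusted p = 0.0020). PLCG1, a phospholipase that FGF receptors activate, averaged 2.63 ± 0.26 in PA HB and 0.93 ± 0.67 in IVV HB, a log2 change of 1.70 (adjusted p = 0.0045). Between CT HB and PA HB, 3 of 16 passed (18.8%, against 7.77%), with GRB2 higher (1.34, adjusted p = 0.0076) and PLCG1 (-1.22, adjusted p = 0.016) and the immediate early gene FOS (-1.23, adjusted p = 0.0072) lower in CT HB.

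Of 28 measured regulators and effectors of BMP, activin, nodal and TGF-beta signalling, 1 passed in PA HB against IVV HB (3.57%, against 7.73% of all genes) and 2 in CT HB against PA HB (7.14%, against 7.77%). GDF9, the partner of BMP15, was higher in PA HB than IVV HB (1.22, adjusted p = 0.017) and lower in CT HB than PA HB (-1.40, adjusted p = 0.0082). PMEPA1, a feedback inhibitor of TGF-beta signalling, was lower in CT HB than PA HB (-1.13, adjusted p = 0.0074). In CT HB against IVV HB, 0 genes of the 3 lists passed both thresholds in limma, and 4 of 27, 1 of 16 and 3 of 28 had an unadjusted p under 0.05 (against 11.0% of all genes).

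Many probes, 256 of them with a gene name, shared one profile over the 9 arrays, and none of the 56 signalling probes was among them. The profile was taken as the mean over the probes of 4 genes, ASAP3, IL12A, LIPE and KAT5. All correlations given here are with that mean. The profile was followed by 644 probes (2.69%) at a Pearson correlation of at least 0.95. Their median log2 ratio was 0.40, 1.14 and 0.07 in CT HB, 2.27, 3.42 and 3.49 in PA HB and 0.34, 2.23 and 1.03 in IVV HB. As a description over 9 arrays of 3 groups, the signalling genes most like it were FGF9 (0.94), INHA (0.91), WNT2B (0.89) and FGFR1 (0.87), and BMP15 was at 0.82. Those running most opposite were ACVR1B and FGFR1OP2 (-0.92 each) and SMAD4 (-0.91). Among the other genes named, TLE4, ZP2 and ZP3 (0.97 each) and GDF9 (0.96) passed the limit, and ZP4 (0.94), ZAR1 (0.91), FOS (0.90) and MOS (0.89) lay under it. Lower still were FIGLA and GATA6 (0.87 each), PLCG1 (0.82), VIM (0.80), PMEPA1 (0.70) and KRT8 (0.55). CSNK1A1 (-0.86), GRB2 and KRT18 (-0.78 each) and SLC2A1 (-0.57) ran opposite to the profile. Without the 644 probes, the numbers of signalling genes past both thresholds were 1, 0 and 1 in PA HB against IVV HB, CT HB against IVV HB and CT HB against PA HB. No signalling probe was removed, so the differences of these genes could not change. The counts therefore do not show what part the profile has in them, which was not tested.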

How the data were processed

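The authors hybridized Cy5-labelled amplified RNA of each embryo pool with a Cy3-labelled reference to a porcine embryo array, subtracted the background and applied global loess within each array. The deposited values are log2 ratios for 23971 probes with 0 missing values. The log base and direction are not written beside them and were read from the values and the dyes, and dyes were not swapped. No spot intensity was used here, hence no probe was set aside for lying near background, and the number of arrays limits the precision.

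The platform annotation gave 1 symbol to 10344 probes (43.2%). Of 2748 probes with an accession, 1567 matched RefSeq genes of assembly Sscrofa11.1, which changed 67 symbols and 0 of those described. Averaging the probes of each gene gave 7518 genes. Of the 50 signalling genes, 45 had 1 probe and 5 had several. No positions or sequences were assigned.

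The 9 arrays were fitted by group in R 4.3.3 with limma 3.58.1 (lmFit, then eBayes, prior of 5.46 degrees of freedom beside 6 residual ones). Two-sided p-values were adjusted by Benjamini-Hochberg over all genes. Both thresholds of the methods were applied, an adjusted p no higher than 0.05 and at least 2-fold. The fit was tested on simulated data. The methods call the pools biological replicates, but collections or activation runs are not given, and the p-values reflect the spread of these pools only.

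Values on each array were given for genes past the threshold, and values for the gene of each role group with the largest change against IVV HB. Genes of the pathway and marker lists were named where they passed both thresholds, and further genes were chosen after their values were seen. The families that define the members, the lists and the tests were chosen with earlier results of these data known, although the rule for members reads gene symbols only. Alternatives were a fit of 2 groups alone, a block for the replicate number, other scaling between arrays (centring, quantile, scale), a fit per probe or on the median of a gene's probes, array weights, no minimum fold change, and the omission of the least variable 25% of genes, of probes of the common profile and of each array.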

Additional observations from a re-analysis of the deposited data

Results flagged for a closer look

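For 4 of 50 signalling genes (8.00%, against 14.4% of all genes) the change against IVV HB differed between CT HB and PA HB. This was tested directly as CT HB against PA HB in limma. The IVV HB arrays cancel from that difference but still enter the estimate of the spread. For FGFR1 the difference of the changes was -0.87 (adjusted p = 0.0069), with 0.18 in CT HB and 1.06 in PA HB against IVV HB. For FGF9 it was -0.79 (adjusted p = 0.016), with -0.17 in CT HB and 0.62 in PA HB. For BMP15 it was -1.13 (adjusted p = 0.034), with -0.23 in CT HB and 0.90 in PA HB. ACVR1B ran the other way, with 0.83 (adjusted p = 0.0093), 0.35 in CT HB and -0.49 in PA HB. For FGFR1, FGF9 and ACVR1B no PA HB array overlapped a CT HB array, whereas for BMP15 the array PA HB 1 did. Over 19 other settings the adjusted p in limma rose to 0.13 for BMP15 and 0.071 for FGF9. It reached at most 0.048 for FGFR1 and 0.049 for ACVR1B.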

How the results depend on the processing

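The number of signalling genes past both thresholds was 1 in PA HB against IVV HB, 0 in CT HB against IVV HB and 1 in CT HB against PA HB, and it stayed between 0 and 5, 0 and 1, and 0 and 4 over 20 other settings each. In the order of these comparisons it was 1, 0 and 0 with the arrays of 2 groups alone, 1, 0 and 2 with quantile normalization, 5, 1 and 2 with scale normalization, 2, 0 and 2 with median centring, without the least variable genes and with array weights, 3, 0 and 4 with no minimum fold change, and 2, 0 and 1 with a fit per probe. With scale normalization the 5 genes were BMP1, BMP15, FST, INHA and TGFB3, without FGFR1. An equal count did not always mean the same gene. The 1 gene in PA HB against IVV HB was INHA with quantile normalization and TGFB3 without PA HB 2. In CT HB against PA HB, the 1 gene without PA HB 3 was BMPR1B, higher in CT HB, and not BMP15. Leaving out 1 array gave 0 to 3, 0 to 0 and 0 to 2, with 3 (without PA HB 1), 2 (without IVV HB 2) and 0 (without IVV HB 1) in PA HB against IVV HB, and with 2 (without PA HB 1 or IVV HB 1) and 0 (without CT HB 2, CT HB 3, PA HB 2 or IVV HB 3) in CT HB against PA HB. None of the single-gene changes followed through these settings turned its direction.

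Over all genes, 581 (56.1% of them higher), 50 (86.0%) and 584 (37.8%) passed. Quantile normalization gave 318 (37.7% higher), 130 and 370 (60.5%), scale normalization 512 (67.6%), 101 (73.3%) and 524 (25.8%), and no minimum fold change 1045, 61 and 1080. CT HB against IVV HB had 77 without the least variable genes and 116 with array weights, and a fit per probe gave 902, 82 and 846. Without the common profile 449 (43.0%) and 404 (54.5%) passed in the comparisons with PA HB. Leaving out 1 array gave 278 to 759, 20 to 74 and 324 to 792, and moved by over 1.5 times to 278 (without IVV HB 1) and 341 (without PA HB 2), to 20, 25 and 23 (without CT HB 3, IVV HB 1 and IVV HB 3), and to 324 (without CT HB 3).

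In a fit that blocked on the replicate number, 2, 0 and 2 signalling genes passed, INHA beside FGFR1 or BMP15 (1.01 and -1.01, adjusted p = 0.018 each), and 619, 56 and 615 of all genes. The samples share only a number: deviations of same-numbered arrays correlated at -0.15 to 0.31 and those of other numbers at -0.42 to 0.26, and 5 of 9 arrays were closest to one of their own number.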
